A study of Homo sapiens with 4 samples.

Results

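The 80 integrin, laminin and collagen genes of the table, out of 16376 genes in all, were taken by symbol: the alpha and beta subunits of integrins, the alpha, beta and gamma chains of laminins, and the collagen chains. They comprise 17 integrin alpha, 8 integrin beta, 12 laminin and 43 collagen genes. Symbols alone decided which genes belong, but the families were chosen with earlier results of these data known. Expression was compared between 2 Ketotifen libraries and 2 PBS libraries of LASCPC-01 cells, all collected at day 3. LASCPC-01 is a single human line of neuroendocrine prostate cancer that arose from benign prostate epithelial cells carrying N-Myc and activated AKT1, and the labels give its genotype as WT in every library. Ketotifen blocks the histamine H1 receptor and stabilises mast cells, PBS is the buffer given to the control cells, and the labels used here state no drug concentration. The libraries of each group are called A and B. Nothing in the labels says whether they came from separate cultures, so the p-values measure a spread that may be technical.

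Integrins are surface receptors made of an alpha and a beta subunit, and the pairing decides which matrix protein is bound. Laminins are trimers of an alpha, a beta and a gamma chain and, with the type IV collagen network, form the basement membrane on which prostate epithelium rests. Collagens are triple helices; the fibrillar types form tissue fibres and are made mostly by fibroblasts. In the normal prostate gland the laminin receptor of ITGA6 and ITGB4 and laminins that contain LAMA3 and LAMB3 mark basal cells and their anchoring to the basement membrane.

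Values are FPKM, that is fragments per length of gene and size of library, so levels can be set side by side between genes. Genes that averaged 1 FPKM or more across the 4 libraries were tested with limma on log2(FPKM + 1), Ketotifen minus PBS, with Benjamini-Hochberg adjustment over all 10586 such genes and a threshold of 0.05. On this scale the change of a gene near 1 FPKM is understated. The FPKM of a gene rise in steps of 1 read, which gave library totals of 36703852 and 33767083 fragments for Ketotifen A and B and 32873604 and 34756749 fragments for PBS A and B. limma's voom on the recovered reads was the second test. Group values are mean ± SD over 2 libraries. With 2 libraries against 2 an exact permutation test cannot go below p = 0.333, so none was made on single genes. In bulk RNA, fewer cells of a kind and less RNA per cell cannot be told apart.

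The neuroendocrine markers were mixed. UCHL1, INSM1 and NCAM1 lay between 19.7 and 490 FPKM in the 4 libraries, ENO2 lay between 1.60 and 3.10 FPKM, and SYP, CHGA, CHGB, SCG2 and SCG3 all stayed at or under 0.594 FPKM. The basal markers KRT5, KRT15 and TP63 did not exceed 0.0926 FPKM in any library and TP63 was at 0 in 3 of the 4, whereas DST, the remaining measured basal marker, reached 3.47 FPKM. The summed level of 7 fibroblast markers was 0.298 and 0.362 FPKM in the Ketotifen libraries and 0.528 and 0.412 FPKM in the PBS libraries, with PDGFRB at 0 in every library. PBS A was nearer than PBS B to both Ketotifen libraries: over the tested genes, log2 values of Ketotifen A and B correlated with PBS A at r = 0.996 each and with PBS B at r = 0.993 and 0.994, across genes. PBS A and PBS B correlated with each other at r = 0.996, the same value that PBS A had with the Ketotifen libraries. Ketotifen A and B correlated with each other at r = 0.998.

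A receptor set led by ITGA3 and ITGB1 and a laminin set with the basal chains under 1 FPKM were expressed. Most collagen genes were under 1 FPKM, with COL5A2 the highest at 17.5 FPKM on average. The differences between Ketotifen and PBS cells were small. Only 19 of the 80 genes reached 1 FPKM: 5 integrin alpha, 4 integrin beta, 5 laminin and 5 collagen genes. No member was called by limma (0 of 19, beside 13 of 10586 genes tested, 0.123%, with 0.113% lower and 0.00945% higher). At an unadjusted p under 0.05, limma had 2 of the 19, ITGA6 and ITGB4, beside 20.4% of all tested genes. Voom called 1 of the 19, ITGA6, lower with Ketotifen, beside 7.54% of 10577 genes called in either direction, 3.85% lower and 3.7% higher. Among the 61 genes under 1 FPKM, LAMB3 was called lower with Ketotifen by voom extended to genes with at least 10 reads on average, a setting added after the data were seen that called 4.88% of 12774 genes in either direction and 2.47% lower.

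**Figure D1:**
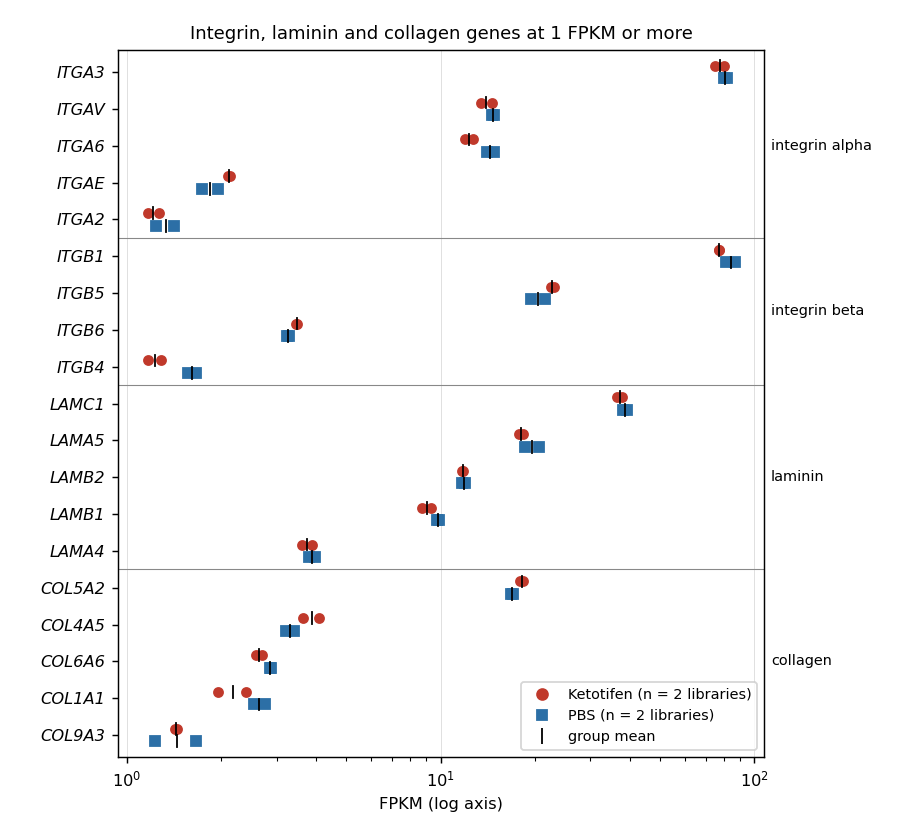
FPKM on a log axis of the 19 genes averaging 1 FPKM or more, by family and falling level. Red circles are Ketotifen libraries and blue squares PBS libraries (n = 2 each), with a black line at the group mean. The groups of most genes lie close together. They do not overlap in 10 genes with Ketotifen lower, ITGB4 and ITGA6 among them, and in 5 with Ketotifen higher. Of all genes tested, 31.2% and 23.2% had such groups.

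Among integrin alpha subunits, ITGA3 (chr17:50055968-50090481), a laminin receptor subunit, made up 71.5% of the family's summed FPKM. It had 79.9 and 75.0 FPKM in the Ketotifen libraries and 80.1 and 81.7 FPKM in the PBS libraries. ITGAV, the subunit of receptors for RGD-containing proteins such as fibronectin and vitronectin, had 14.55 and 13.4 FPKM with Ketotifen and 14.8 and 14.59 FPKM with PBS. Ketotifen values of both genes lay just below all PBS values (log2 changes of -0.06 ± 0.05 for ITGA3 and -0.07 ± 0.06 for ITGAV, ± SE), and limma did not call them (adjusted p = 0.546 and 0.574).

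ITGA6 (chr2:172427354-172506282), which pairs with ITGB1 or ITGB4 to bind laminin, had 12.0 and 12.7 FPKM in the Ketotifen libraries and 14.0 and 14.8 FPKM in the PBS libraries. The groups did not overlap, and each Ketotifen library was below each PBS library. The log2 change was -0.21 ± 0.06 (SE; 95% interval -0.36 to -0.06), a level 1.16-fold lower with Ketotifen, and limma's adjusted p was 0.151. With 2582 to 3093 recovered reads per library, voom gave -0.23 with an adjusted p of 0.0391, and 0.0495 when genes with fewer reads were added. Without PBS A, limma's adjusted p was 0.0259; without any other library it was at least 0.232. Annotated antisense transcripts each share at most 2.66% of ITGA6's exonic bases.

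The other alpha subunits above 1 FPKM were low. ITGAE, which pairs with ITGB7 on lymphocytes that bind E-cadherin, had 2.13 and 2.09 FPKM with Ketotifen and 1.94 and 1.74 FPKM with PBS (log2 change 0.13 ± 0.09 SE, limma adjusted p = 0.413). Its partner ITGB7 had 1 read over the 4 libraries together. In the annotation, 427 bases of ITGAE exons, 6.41% of them, overlap HASPIN on the opposite strand; HASPIN was at 11.8 FPKM on average, and whether reads were counted by strand is not given in the sources used here, which leaves ITGAE uncertain. ITGA2, a collagen-binding subunit, averaged 1.21 ± 0.07 FPKM with Ketotifen and 1.33 ± 0.13 FPKM with PBS, and its groups overlapped. The other 12 alpha subunits were under 1 FPKM, at most 0.212 FPKM on average (ITGA10).

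ITGB1 (chr10:32900319-33005792), the common partner of most alpha subunits, had the highest mean level of the 80 genes. It had 77.0 and 77.3 FPKM in the Ketotifen libraries and 81.4 and 86.8 FPKM in the PBS libraries. Both Ketotifen values were below both PBS values (log2 change -0.12 ± 0.05 SE, limma adjusted p = 0.251). PBS A was nearer to the Ketotifen libraries than to PBS B. ITGB1 and ITGA3 were near equal in FPKM, with ITGB1 at 0.996 times ITGA3 in Ketotifen cells and 1.04 times in PBS cells.

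ITGB5 (chr3:124761948-124901418), a partner of ITGAV that binds vitronectin, had 23.0 and 22.4 FPKM with Ketotifen and 21.5 and 19.4 FPKM with PBS. Here the Ketotifen libraries were the higher ones, again without overlap (log2 change 0.15 ± 0.06 SE, limma adjusted p = 0.249). Without PBS A, limma called both ITGB1 (lower, adjusted p = 0.0335) and ITGB5 (higher, adjusted p = 0.0292), at a setting that called 1936 genes in all. ITGB6, the epithelial partner of ITGAV that activates latent TGF-beta, averaged 3.47 ± 0.02 FPKM with Ketotifen and 3.26 ± 0.03 FPKM with PBS (limma adjusted p = 0.615). An annotated transcript on the same strand, AC092153.1, shares 20.6% of ITGB6's exonic bases, so its reads are uncertain.

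ITGB4 (chr17:75721328-75757818), the hemidesmosome subunit that pairs with ITGA6, had 1.28 and 1.17 FPKM in the Ketotifen libraries and 1.57 and 1.66 FPKM in the PBS libraries. The PBS mean was 1.32 times the Ketotifen mean, the widest relative gap among the 19 tested genes, with no overlap. The log2 change was -0.23 ± 0.09 (SE; 95% interval -0.44 to -0.03) with a limma adjusted p of 0.209, and voom on 271 to 395 reads per library gave -0.39 with an adjusted p of 0.111.

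The laminin genes above 1 FPKM were LAMA5, LAMA4, LAMB1, LAMB2 and LAMC1, the chains of laminins of epithelial and vessel basement membranes. LAMC1 (chr1:183023460-183145592), the common gamma chain, had 37.9 and 36.5 FPKM with Ketotifen and 39.2 and 38.2 FPKM with PBS. LAMA5 had 17.8 and 18.3 FPKM with Ketotifen and 18.6 and 20.6 FPKM with PBS. Both genes were lower in each Ketotifen library than in each PBS library, by amounts that limma did not call (log2 changes of -0.06 ± 0.05 and -0.11 ± 0.07, ± SE; adjusted p = 0.577 and 0.378). On the opposite strand ADRM1, at 71.4 FPKM, overlaps 1.71% of the exonic bases of LAMA5, and DLD, at 40.03 FPKM, 0.86% of those of LAMB1.

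Of the beta chains, LAMB2 had 11.8 and 11.7 FPKM with Ketotifen and 11.7 and 12.0 FPKM with PBS, which overlapped. LAMB1 had 9.31 and 8.73 FPKM with Ketotifen and 9.72 and 9.86 FPKM with PBS, without overlap (log2 change -0.11 ± 0.06 SE, limma adjusted p = 0.382). LAMA4, an alpha chain of vessel and muscle laminins, averaged 3.76 ± 0.19 FPKM with Ketotifen and 3.89 ± 0.13 FPKM with PBS. In RNA, LAMC1 was at 2.06 times the level of LAMA5 in Ketotifen cells and 1.98 times in PBS cells. The 5 alpha chain genes summed to 21.8 FPKM with Ketotifen and 23.5 FPKM with PBS. The 3 gamma chain genes summed to 37.3 FPKM with Ketotifen and 38.9 FPKM with PBS. Protein was not measured. All 5 tested laminins had a negative log2 change, with a median of -0.06 beside -0.02 over all genes tested; LAMB2 changed sign under median ratio scaling, under quantile normalization and without PBS B, and LAMA4 under quantile normalization.

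**Figure D2:**
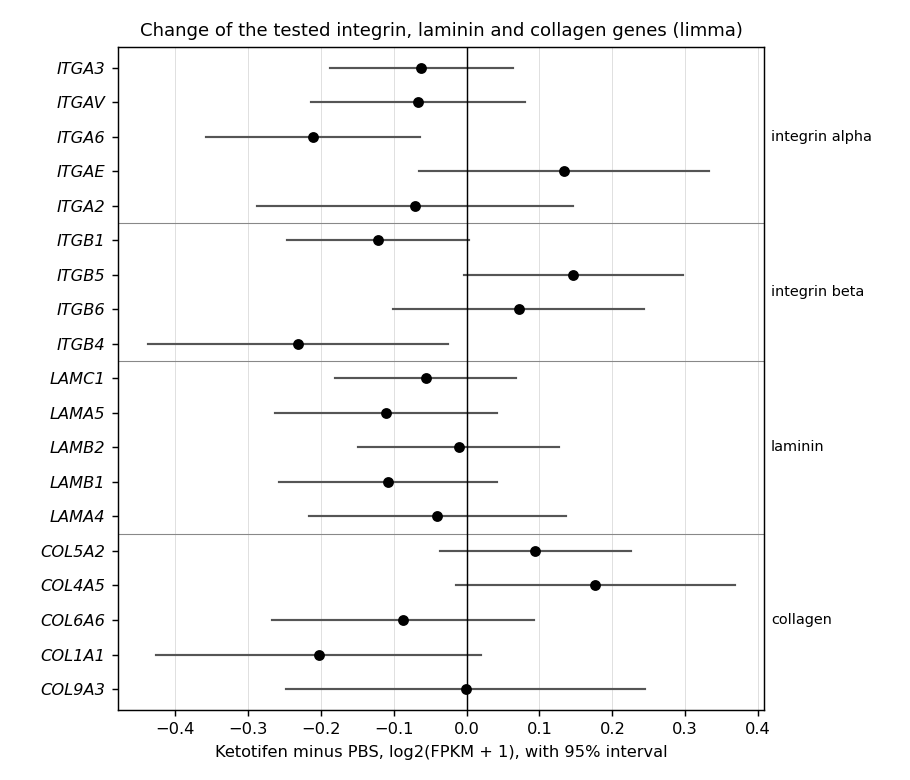
Log2 change, Ketotifen minus PBS, on log2(FPKM + 1), with 95% intervals from limma, for the 19 tested genes by family. Intervals of all but ITGA6 and ITGB4 include 0, and the largest change in size is that of ITGB4, -0.23.

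The basal laminin was a different case. LAMB3 (chr1:209614870-209652466, minus strand), the beta chain found in the laminin of hemidesmosomes, had 0.0667 and 0.0660 FPKM in the Ketotifen libraries and 0.352 and 0.320 FPKM in the PBS libraries. These are 11 and 10 recovered reads with Ketotifen and 52 and 50 reads with PBS, so both Ketotifen libraries were low and both PBS libraries high. Voom over the 12774 genes with at least 10 reads on average gave a log2 change of -2.29 ± 0.55 (SE; 95% interval -3.44 to -1.13), 4.87-fold lower with Ketotifen, with an adjusted p of 0.0216. The call was lost without Ketotifen A (adjusted p = 0.115) or Ketotifen B (0.0817), and kept without PBS A (0.0101) or PBS B (0.0214). On log2(FPKM + 1) with no filter, where values this low are compressed, limma's adjusted p was 0.318.

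LAMA3, the alpha chain that LAMB3 is joined to, had 18 and 16 reads with Ketotifen and 18 and 15 with PBS, at 0.04 FPKM in both groups (voom log2 change -0.01, 95% interval -1.24 to 1.22). Whether LAMA3 and LAMB3 differ from each other in their response was not tested. Among the basal-cell partners, ITGB4 was lower with Ketotifen as given above, without a call, and the basal markers KRT5, KRT15 and TP63 were at or near 0 in both groups. The 4 measured basal markers summed to 3.16 and 3.29 FPKM with Ketotifen and 3.42 and 3.60 FPKM with PBS, nearly all of it DST; their part in the LAMB3 difference was not tested.

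RefSeq (GRCh38.p14) places 3 starts for LAMB3, and 2 of their windows (250 bases before to 50 after the start) are printed because this gene had the largest fitted change of the 40 members with at least 10 reads. Capitals mark the letters TGANTCA, the AP-1 motif, searched on both strands. The upstream window holds none, and neither does the window not printed, chr1:209652280-209652579.
LAMB3 upstream start, chr1:209652376-209652675, minus strand: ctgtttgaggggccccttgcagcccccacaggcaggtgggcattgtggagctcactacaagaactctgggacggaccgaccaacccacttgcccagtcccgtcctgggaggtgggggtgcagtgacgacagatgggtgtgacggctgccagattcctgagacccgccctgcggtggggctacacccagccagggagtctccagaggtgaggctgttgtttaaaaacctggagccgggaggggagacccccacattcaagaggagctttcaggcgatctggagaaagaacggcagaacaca
LAMB3 downstream start, chr1:209651325-209651624, minus strand: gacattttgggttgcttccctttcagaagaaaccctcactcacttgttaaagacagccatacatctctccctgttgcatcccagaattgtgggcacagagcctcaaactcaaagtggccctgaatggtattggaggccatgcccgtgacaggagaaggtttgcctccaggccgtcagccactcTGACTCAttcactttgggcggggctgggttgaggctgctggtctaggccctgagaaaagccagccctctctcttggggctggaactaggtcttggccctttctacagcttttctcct
The match in the downstream window, TGACTCA, begins 67 bases before the start. The same letters occur in 7.71% of 35116 RefSeq windows of this length and in 3 of the 74 windows of the 57 members that had one; the hypoxia response letters ACGTG are in no LAMB3 window, in 21.4% of all windows and in 10 of the 74. The motifs were chosen with the results known, and gene-level FPKM do not show which start was used.

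Of the 43 collagen genes, 38 were under 1 FPKM and COL5A3, COL6A5 and COL8A2 were listed at 0 in every library. COL5A2 (chr2:189031896-189225312), a fibrillar chain of type V, made up 56.1% of the summed collagen FPKM, with 18.3 and 17.9 FPKM in the Ketotifen libraries and 17.03 and 16.8 FPKM in the PBS libraries. Both Ketotifen values were above both PBS values, with a PBS mean of 0.933 times the Ketotifen mean (log2 change 0.09 ± 0.06 SE, limma adjusted p = 0.380). The collagen genes as a whole summed to 31.5 ± 0.61 FPKM with Ketotifen and 30.9 ± 0.24 FPKM with PBS, and the median log2 change of the 5 tested ones was -0.0013.

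COL5A2 was expressed almost without the chain it is joined to in type V collagen. COL5A1 had 16 and 33 reads with Ketotifen and 57 and 43 with PBS, where COL5A2 had between 3910 and 4697 reads per library. In FPKM, COL5A2 was 275 times COL5A1 in Ketotifen cells and 122 times in PBS cells. The lower COL5A1 with Ketotifen did not pass voom's threshold (log2 change -1.16 ± 0.49 SE, adjusted p = 0.179). Type I collagen was also uneven, on few reads of its other chain. COL1A1 had 2.39 and 1.95 FPKM with Ketotifen and 2.53 and 2.75 FPKM with PBS (log2 change -0.20 ± 0.10 SE, limma adjusted p = 0.282), against 3 and 2 reads of COL1A2 with Ketotifen and 0 and 11 with PBS.

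**Figure D3:**
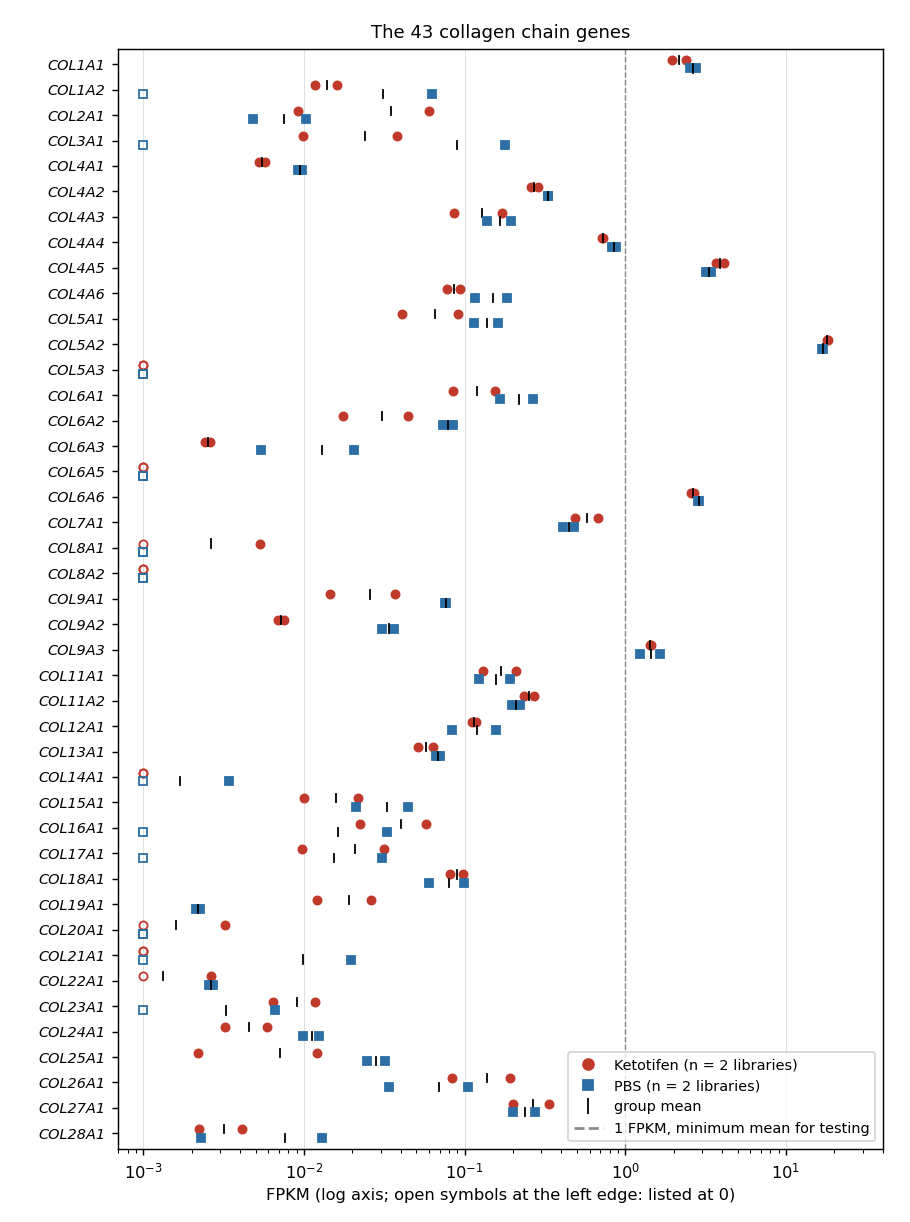
FPKM on a log axis of all 43 collagen genes, with Ketotifen libraries as red circles above PBS libraries as blue squares, group means as black lines, and open symbols at the left edge for values listed at 0. Only COL5A2, COL4A5, COL6A6, COL1A1 and COL9A3 lie right of the dashed line at 1 FPKM, the minimum mean for testing.

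In the type IV network of basement membranes, COL4A5 (chrX:108439844-108697545) was the main chain. It had 4.11 and 3.64 FPKM in the Ketotifen libraries and 3.202 and 3.42 FPKM in the PBS libraries, with both Ketotifen libraries higher (log2 change 0.18 ± 0.08 SE, limma adjusted p = 0.276). COL4A6, whose gene starts 347 bases away on the other strand, had 29 and 22 reads with Ketotifen and 51 and 34 with PBS, with both Ketotifen libraries lower (voom log2 change -0.76 ± 0.48 SE, adjusted p = 0.387). The ratio of COL4A5 to COL4A6 in FPKM was 45.3 in Ketotifen cells and 22.0 in PBS cells.

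The window before COL4A5 is printed because this pair shares part of it: capitals mark the 121 bases that lie also in 1 RefSeq window of COL4A6. COL4A6 has 2 RefSeq windows, and the other, chrX:108438373-108438672, does not overlap that of COL4A5.
COL4A5 start, chrX:108439588-108439887, plus strand: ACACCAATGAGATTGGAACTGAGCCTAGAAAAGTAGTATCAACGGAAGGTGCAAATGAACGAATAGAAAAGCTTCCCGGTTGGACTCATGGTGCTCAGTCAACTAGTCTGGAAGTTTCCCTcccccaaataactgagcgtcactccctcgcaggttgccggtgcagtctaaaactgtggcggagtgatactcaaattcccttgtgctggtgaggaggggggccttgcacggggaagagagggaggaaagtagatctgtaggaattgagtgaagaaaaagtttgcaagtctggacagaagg
The other neighbouring pairs of type IV chains were uneven too. COL4A4 averaged 0.725 ± 0.007 FPKM with Ketotifen and 0.854 ± 0.036 FPKM with PBS, and was 5.65 times COL4A3 in Ketotifen cells and 5.15 times in PBS cells; their starts are 112 bases apart. COL4A2, a chain of the common network, averaged 0.271 ± 0.02 FPKM with Ketotifen and had 0.330 FPKM in each PBS library, and its partner COL4A1 had 3 reads in each Ketotifen library and 5 in each PBS library. The partner chains under 1 FPKM were named after their values had been seen.

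Of the remaining collagens above 1 FPKM, COL6A6, a chain of beaded-filament type VI collagen, averaged 2.63 ± 0.08 FPKM with Ketotifen and 2.86 ± 0.02 FPKM with PBS, without overlap (limma adjusted p = 0.554). COL9A3, a type IX chain known from cartilage, averaged 1.43 ± 0.01 FPKM with Ketotifen and 1.44 ± 0.30 FPKM with PBS, where PBS A had 1.65 and PBS B 1.23 FPKM. The COL9A3 groups overlapped and its log2 change was -0.0013 ± 0.11 (SE).

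At the low end, 21 of the 61 genes under 1 FPKM had at least 10 reads on average, and 12 of them had a negative and 9 a positive log2 change; LAMB3 was the 1 called lower, and 0 were called higher, beside 2.47% of genes called lower and 2.41% called higher by this fit. At an unadjusted p under 0.05 the same voom fit had 9 of 40 members in all, beside 21.3% of the 12774 genes, which is near that share. ITGB2, the beta subunit of leukocyte integrins, had 50 and 25 reads in the Ketotifen libraries and 78 and 83 reads in the PBS libraries. That is 0.434 and 0.236 FPKM with Ketotifen and 0.755 and 0.760 FPKM with PBS, with no overlap and with the Ketotifen libraries apart from each other (voom log2 change -1.22 ± 0.40 SE, adjusted p = 0.0802). Its leukocyte alpha partners ITGAL, ITGAM and ITGAX had at most 4 reads in any library. The 5 measured leukocyte markers summed to 3.05 and 3.23 FPKM with Ketotifen and 2.85 and 4.19 FPKM with PBS, nearly all of it CD68, while PTPRC did not exceed 0.0281 FPKM; their part was not tested. ITGB2-AS1 overlaps 4.46% of ITGB2's exonic bases on the opposite strand. ITGB2, COL5A1 and COL3A1 were named after their values had been seen.

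Single libraries decided some of the lowest values. COL3A1, a fibrillar collagen of fibroblasts, had 2 and 7 reads with Ketotifen and 0 and 34 with PBS, so that PBS B alone was high. Voom's log2 change was -0.02 with all libraries (adjusted p = 0.996), -3.03 without PBS A, which passed the threshold (adjusted p = 0.00565), and 2.99 without PBS B (adjusted p = 0.306). COL1A2 had 11 reads and COL6A3 had 8 in PBS B, against at most 3 in any other library. The summed fibroblast markers were not highest in that library, at 0.412 FPKM in PBS B and 0.528 FPKM in PBS A; their part in these reads was not tested. In all, 13 genes under 1 FPKM were at least 5 times apart between the group means or at 0 in 1 group, of which 8 were lower and 5 higher with Ketotifen; 12 of them had fewer than 25 reads over the 4 libraries together. The exception was LAMB3. The matching share over all genes under 1 FPKM was not computed, so these counts have no background beside them. COL19A1 had 6 and 12 reads with Ketotifen and 1 and 1 with PBS, and ITGA1 had 15 and 3 with Ketotifen and 0 and 1 with PBS.

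**Figure D4:**
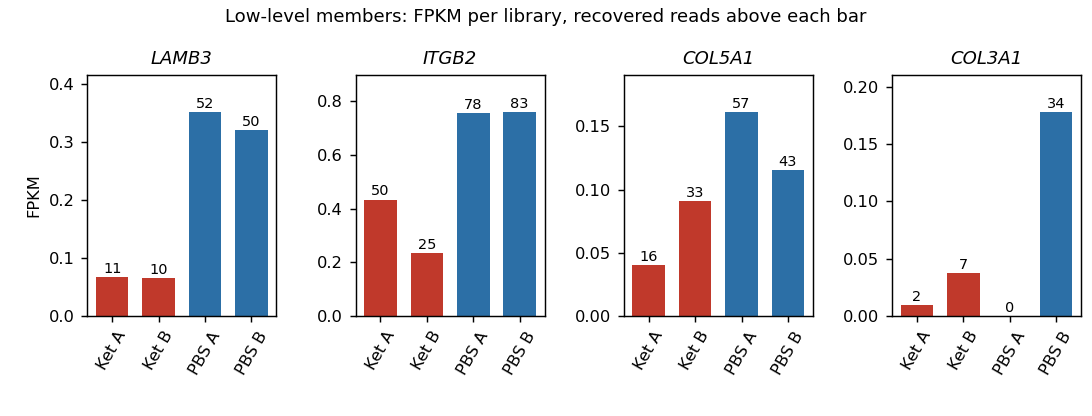
FPKM of LAMB3, ITGB2, COL5A1 and COL3A1 in each library as bars from 0, Ketotifen (red) left of PBS (blue), with the recovered reads above each bar. LAMB3 has 11 and 10 reads with Ketotifen and 52 and 50 with PBS, while COL3A1 is high in PBS B alone.

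By family, the summed FPKM of integrin alpha genes was 108 ± 3.67 with Ketotifen and 114 ± 1.37 with PBS, that of integrin beta genes 105 ± 0.42 with Ketotifen and 110 ± 2.46 with PBS, and that of laminins 80.0 ± 0.88 with Ketotifen and 84.4 ± 0.82 with PBS. The median log2 change was -0.07 for the 5 integrin alpha genes, -0.03 for the 4 integrin beta genes and -0.06 over all 19 members, beside -0.02 over all genes tested. In size the change of a member had a median of 0.09, as had that of all genes tested. Of the 19 members, 10 were lower in both Ketotifen libraries than in both PBS libraries and 5 were higher in both, beside 31.2% and 23.2% of all genes tested. Between PBS B and PBS A the median log2 difference was 0.03 in both integrin families, 0.02 in laminins and -0.01 in collagens.

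The genes around these receptors and chains were read from lists chosen by function. Their counts stand beside these shares of all genes tested. Limma called 0.123%, and 20.4% had an unadjusted p under 0.05. Voom called 7.54%, with 3.7% higher and 3.85% lower. Voom over genes with at least 10 reads, which also covers TNC, TGM2 and PLAU below, called 4.88% in either direction and 2.47% lower. In the list of integrin adaptors and signalling proteins, limma called 0 of 25 tested genes, 5 of which had an unadjusted p under 0.05, and voom called 1 lower and 1 higher; the median log2 change was -0.06. PXN, the focal adhesion scaffold paxillin, averaged 11.8 ± 0.28 FPKM with Ketotifen and 13.7 ± 0.26 FPKM with PBS (voom log2 change -0.22, adjusted p = 0.0346; limma adjusted p = 0.148). ITGB1BP1, which binds the ITGB1 tail and restrains its activation, averaged 8.64 ± 0.02 FPKM with Ketotifen and 7.23 ± 0.35 FPKM with PBS. Its voom log2 change was 0.26 (adjusted p = 0.0406), and limma's adjusted p was 0.148. In voom over genes with at least 10 reads, the ITGB1BP1 call was lost (adjusted p = 0.0503) and PXN kept its call (0.0433). ZYX, the actin-linked adaptor zyxin, averaged 21.6 ± 0.19 FPKM with Ketotifen and 25.5 ± 1.61 FPKM with PBS and was called by neither test.

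Among other matrix receptors and integrin partners, limma called 0 of 14, 4 of which had an unadjusted p under 0.05, and voom called 3 higher and 0 lower. Of all genes tested, 20.4% had such a p in limma, and voom called 3.7% higher and 3.85% lower. CD151, the tetraspanin that associates with laminin-binding integrins, had 102 and 96.5 FPKM in the Ketotifen libraries and 83.3 and 73.3 FPKM in the PBS libraries, with both Ketotifen libraries higher. Its voom log2 change was 0.35 with an adjusted p of 0.00265, and limma's adjusted p was 0.1003. CD81, another tetraspanin, averaged 149 ± 2.78 FPKM with Ketotifen and 125 ± 16.2 FPKM with PBS (voom adjusted p = 0.0166, limma adjusted p = 0.163). RPSA, a ribosomal protein also described as a laminin receptor, averaged 1324 ± 25.5 FPKM with Ketotifen and 1162 ± 62.8 FPKM with PBS. Its voom log2 change was 0.19 (adjusted p = 0.0162), and limma's adjusted p was 0.168.

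In the list of other matrix proteins, limma called 1 of 5 tested genes lower and 0 higher, beside 0.113% lower and 0.00945% higher of all genes tested. An unadjusted limma p under 0.05 was found in 1 of the 5, beside 20.4% of all genes tested. FN1, the fibronectin bound by ITGB1 and ITGAV receptors, had 1.097 and 0.971 FPKM with Ketotifen and 2.46 and 3.30 FPKM with PBS, and fell by 0.92 on the log2 scale (limma adjusted p = 0.0426). The FN1 call was lost at a pseudocount of 5, with no filter, under median ratio scaling and quantile normalization, and without Ketotifen B (limma adjusted p = 0.0607). Voom called FN1 lower, by a log2 change of -1.46 (adjusted p = 9.4e-06, and 7.14e-05 over genes with at least 10 reads). HSPG2, the basement membrane proteoglycan perlecan, averaged 2.69 ± 0.21 FPKM with Ketotifen and 3.05 ± 0.03 FPKM with PBS, and THBS1, a matricellular protein, averaged 1.61 ± 0.21 FPKM with Ketotifen and 1.40 ± 0.25 FPKM with PBS, both uncalled. TNC, the matrix glycoprotein tenascin-C, had 8 and 4 reads with Ketotifen and 33 and 33 with PBS (voom over genes with at least 10 reads, log2 change -2.48, adjusted p = 0.0385), a call lost without Ketotifen A, Ketotifen B or PBS B.

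Collagen-modifying enzymes held the other limma call, beside 0.113% lower and 0.00945% higher of all genes tested. Of the 14 tested genes, 6 had an unadjusted limma p under 0.05, beside 20.4% of all genes tested. Their median log2 change was -0.107, beside -0.02 over all genes tested. The list as a whole was not tested. P4HA1, a subunit of the prolyl hydroxylase that stabilises the collagen helix, had 14.1 and 13.7 FPKM with Ketotifen and 19.5 and 19.3 FPKM with PBS and fell by 0.45 on the log2 scale (limma adjusted p = 0.0426), 1 of 14 tested genes called lower and 0 higher. Its call was lost without Ketotifen A (0.0722) or Ketotifen B (0.131), with no filter, and under median ratio scaling or quantile normalization. PLOD2, a lysyl hydroxylase, averaged 31.8 ± 2.22 FPKM with Ketotifen and 40.7 ± 0.26 FPKM with PBS. Voom called PLOD2 lower (log2 change -0.36, adjusted p = 0.0017), and limma did not call it (adjusted p = 0.0937). PPIB, a prolyl isomerase of collagen folding, averaged 488 ± 13.4 FPKM with Ketotifen and 413 ± 17.1 FPKM with PBS. Voom called PPIB higher (adjusted p = 0.00615), and limma did not call it (adjusted p = 0.109). P3H4, part of a lysine-modifying complex for collagen, averaged 1.22 ± 0.07 FPKM with Ketotifen and 1.93 ± 0.05 FPKM with PBS, uncalled by either test. The crosslinking transglutaminase TGM2 had 83 and 43 reads with Ketotifen and 137 and 198 with PBS (voom over genes with at least 10 reads, log2 change -1.50, adjusted p = 0.0136, and 0.0814 without Ketotifen B).

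Matrix proteases and their inhibitors gave 0 calls of 10 tested genes by limma, 1 of which had an unadjusted p under 0.05, and 0 by voom. Of all genes tested, 20.4% had such a p in limma, and voom called 7.54%. TIMP2, an inhibitor of metalloproteases, averaged 12.3 ± 0.63 FPKM with Ketotifen and 14.6 ± 0.80 FPKM with PBS, and the metalloprotease MMP16 averaged 6.16 ± 0.03 FPKM with Ketotifen and 6.91 ± 0.41 FPKM with PBS. MMP2, a gelatinase, averaged 1.59 ± 0.10 FPKM with Ketotifen and 1.32 ± 0.12 FPKM with PBS. PLAU, the urokinase plasminogen activator, had 29 and 19 reads with Ketotifen and 61 and 78 with PBS (voom over genes with at least 10 reads, log2 change -1.59, adjusted p = 0.044), a call lost without Ketotifen A, Ketotifen B or PBS B.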

How the data were processed

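Polyadenylated RNA of 4 LASCPC-01 libraries was sequenced in read pairs from a stranded kit, per the labels' protocols. The table the authors deposited gives 1 FPKM value for each gene in each library. fastp, HISAT2, HTSeq and GRCh38 are named in the submitters' processing notes, without versions or roles; the sources used here do not give the annotation, the FPKM totals or the use of strand in counting. Columns are named by group and by a letter, A or B. Genes averaging 1 FPKM or more were tested on log2(FPKM + 1) with limma 3.58.1 in R 4.3.3, with its trend on mean level; tests were two-sided, and a Benjamini-Hochberg adjusted p under 0.05 was a call. Reads were recovered from the FPKM steps (Python 3.11.15; 9 printed decimals, tolerance 0.05 reads), up to a factor per gene common to the libraries, for 10577 of 10586 tested genes (99.9%). They summed to 93.6% to 93.8% of the inferred library totals, and limma's voom was run on them. The recovery was tested on simulated fragments, and the fits on simulated reads of genes averaging 1 FPKM or more. The simulated fits did not cover genes under 1 FPKM, such as LAMB3, and the outcomes are not reported here. Values of some genes are not reported here. Alternatives were pseudocounts of 0.1 and 5, no filter or at least 5 FPKM, 3 scalings, leaving out each library, a block by column letter, and voom. Coordinates are from GENCODE 29 (GRCh38) and promoter windows from RefSeq (GRCh38.p14). Members above 1 FPKM could be named; every library is given for those above 5 FPKM, those called, and the 3 of each family with the smallest limma p. From each functional list, called genes and the 3 with the smallest limma p are given. The members, the lists and these rules were chosen with earlier results of these data known.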

Additional observations from a re-analysis of the deposited data

How the results depend on the processing

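The columns carry the letters A and B, which cannot be tied to the labels' replicate numbers, and nothing says that a letter marks a shared culture or day. Deviations from the group means of libraries with the same letter correlated at r = 0.102 across genes. Chosen after the data were seen, a replicate block by letter, with 1 residual degree of freedom, called 637 genes (406 higher, 231 lower). It called no member above 1 FPKM, ITGA6 included (adjusted p = 0.0783), and in the voom fit of genes with at least 10 reads it kept LAMB3 (0.00462) and added ITGB2 (0.0497). COL3A1, uncalled, then had a log2 change of -0.88. Under the block, limma called 1 adaptor, 3 matrix receptors and 4 collagen folding enzymes.

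The number of genes called, 13 at the settings of the report, was 0 with no filter, 27 at 5 FPKM or more (15 of them higher with Ketotifen), 3 under median ratio scaling and 3 under quantile normalization, 798 by voom (391 higher, 407 lower) and 624 by voom over genes with at least 10 reads; leaving out 1 library gave 10 (without Ketotifen B) to 1936 (without PBS A), with 28 without Ketotifen A and 421 without PBS B. The cause of these differences was not tested.

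Called members, 0 at the settings of the report, were 1 integrin alpha gene (ITGA6) by both voom fits and 1 laminin gene (LAMB3) by voom over genes with at least 10 reads; without 1 library, limma called 0 to 1 integrin alpha and 0 to 2 integrin beta genes, and 0 laminins and 0 collagens. In the voom fit of genes with at least 10 reads, LAMB3 stayed called without PBS A or PBS B, and COL3A1 was called lower without PBS A. The median log2 change of integrin alpha genes (-0.067) was 0.011 with no filter, where all 17 genes enter, and ranged from -0.107 to -0.017 without 1 library. That of integrin beta genes (-0.025) was 0.012 at 5 FPKM or more, -0.071 with equal sums and -0.124 by voom over genes with at least 10 reads, and ranged from -0.052 to 0.00076 without 1 library. That of laminins (-0.056) stayed negative: -0.026 with no filter, -0.082 at 5 FPKM or more, -0.037 under median ratio scaling, -0.075 under quantile normalization, -0.107 with equal sums, -0.087 by voom over genes with at least 10 reads, and from -0.082 to -0.037 without 1 library. That of collagens (-0.0013) was 0.094 at 5 FPKM or more, where COL5A2 alone remains, 0.046 under quantile normalization and -0.031 with equal sums, and ranged from -0.091 to 0.106 without 1 library.

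Of single members, COL9A3 turned positive at a pseudocount of 0.1 (0.0029), under median ratio scaling (0.010) and quantile normalization (0.046), and by voom (0.0088, or 0.010 over genes with at least 10 reads), and ranged from -0.126 to 0.124 without 1 library. LAMA4 turned positive under quantile normalization (0.0033). LAMB2 turned positive under median ratio scaling (0.0075) and quantile normalization (0.0017), and ranged from -0.027 to 0.0046 without 1 library. COL3A1 ranged from -3.03 to 2.99 without 1 library. The other members above 1 FPKM, LAMB3, ITGB2 and COL5A1 kept the sign of their change in every alternative run.

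In the functional lists, adaptors had 2 genes called by voom and 1 by voom over genes with at least 10 reads (0 to 3 without 1 library), and a median of -0.107 with equal sums. Other matrix proteins had 0 at a pseudocount of 5, with no filter, at 5 FPKM or more and under median ratio scaling and quantile normalization, and 2 by voom over genes with at least 10 reads (0 to 1 without 1 library). Matrix receptors had 3 by both voom fits (0 to 5 without 1 library), and a median (0.015) of -0.0057 with no filter, 0.030 at 5 FPKM or more, 0.032 under median ratio scaling, 0.044 under quantile normalization, -0.030 with equal sums, and from -0.012 to 0.058 without 1 library. Collagen folding enzymes had 0 with no filter and under median ratio scaling and quantile normalization, 3 by voom and 4 by voom over genes with at least 10 reads (0 to 4 without 1 library). Their median (-0.107) was -0.113 at a pseudocount of 0.1, -0.086 at 5, -0.088 under median ratio scaling, -0.156 with equal sums, -0.113 by voom, -0.188 by voom over genes with at least 10 reads, and from -0.166 to -0.068 without 1 library. Proteases had 1 by voom over genes with at least 10 reads (0 to 2 without 1 library).

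Depth limits the low members. Of the 61 genes under 1 FPKM, 37 had reads but fewer than 10 on average. For the 21 with more, the 95% interval of the log2 change reached 0.998 to either side at the median. Where a group keeps 1 library, that library was assumed to vary like the other group.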
